A study of Danio rerio with 6 samples.

Results

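The Wnt signalling genes of the zebrafish trunk were followed across sorted slow-twitch muscle cells and trunk neural crest cells. They were taken by gene symbol as the Wnt ligands (wnt), the Frizzled receptors (fzd), the co-receptors lrp5 and lrp6, the secreted inhibitors of the Sfrp and Dkk families (sfrp, dkk), the scaffolds axin1 and axin2, and the transcription factors lef1 and tcf7 with its relatives. These symbols matched 59 of the 32520 genes in the count table, and 43 of the 59 had 10 or more counts in at least 2 libraries and count as expressed here. Bulk RNA sequencing covered 6 libraries in 3 groups of 2. The groups were slow-twitch muscle (replicates 1 and 2), neural crest of embryos exposed to cyclopamine at 100 µM, starting at 50% epiboly and lasting until 24 hours post fertilization (replicates 3 and 4), and untreated neural crest (replicates 1 and 2). All embryos were labelled wild type, reared at 28 °C, dissected at 24 hours, and carried both tg(sox10:mRFP), a reporter of neural crest, and tgPAC(prdm1a:eGFP), a reporter of slow-twitch muscle. Cyclopamine inhibits Smoothened and thereby Hedgehog signalling, and no vehicle is stated for the untreated embryos. Whether the replicates are separate embryo pools is not in the labels, and p-values therefore rest on a spread between libraries that may be technical.

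Wnt ligands are secreted lipid-modified glycoproteins that bind Frizzled receptors. With Lrp5 or Lrp6 as co-receptor they stabilise beta-catenin by disabling a destruction complex built on Axin and Apc, and beta-catenin then activates genes through Tcf and Lef factors. Other ligands, among them Wnt5 and Wnt11 proteins, can act through Frizzleds without beta-catenin and steer cell movement and polarity. Sfrp proteins bind Wnt ligands, and Dkk1 blocks the Lrp co-receptors. In the vertebrate trunk, Wnt ligands of the dorsal neural tube and neighbouring ectoderm induce neural crest and favour pigment cell fates.

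Total counts lay between 24358588 and 26441238 in slow muscle, between 18781774 and 20973884 in cyclopamine neural crest, and between 15355583 and 17504692 in untreated neural crest. Levels are CPM, the counts scaled to a common library size after TMM normalisation. Where a gene had 0 counts, counting error of independent reads alone permits a level of 3 counts, which is 0.127 to 0.178 CPM depending on the library. Libraries of a group differed by more than that, as wnt16 had 0 and 97 counts (5.74 CPM) in untreated neural crest. A 0 can therefore stand for a level above this limit. The titles of the untreated neural crest libraries carry the words slow-twitch, while their tissue entries read neural crest. The summed level of 9 neural crest markers was 228 CPM in each slow muscle library, 6203 and 8176 CPM in cyclopamine neural crest, and 6252 and 6111 CPM in untreated neural crest. For 9 slow muscle markers the sums were 60216 and 28399 CPM in slow muscle, 123 and 217 CPM in cyclopamine neural crest, and 214 and 230 CPM in untreated neural crest, so each sort carried the markers of its tissue entry. Cyclopamine replicate 4 stood apart, with 17 of the 43 expressed Wnt genes at 0 counts, against 8 in cyclopamine replicate 3, 2 and 3 in slow muscle, and 8 and 11 in untreated neural crest. For 12 of those 17 genes the other cyclopamine library held 20 counts or more. Over the whole count table cyclopamine replicate 4 also had the fewest genes with reads, 13249 against 15281 to 17275 in the others. These zeros are therefore no result about Wnt genes. After a running mean over 5 adjacent count values, the most frequent count above 12 was 97 in cyclopamine replicate 4. It was between 33 and 44 in the others. Genes near such counts may be poorly determined, which was not tested.

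Markers of other tissues moved with the slow muscle sort. All 11 epidermal markers were higher in both slow muscle libraries than in both untreated libraries, beside 33.6% of all genes tested. The epidermal markers summed to 7923 and 10894 CPM in slow muscle, 1490 and 308 CPM in cyclopamine neural crest, and 815 and 556 CPM in untreated neural crest. Among them krtt1c19e was at 0 in cyclopamine neural crest and krt91 in untreated neural crest. Of 9 endothelial markers 8 were higher in the same sense, with sums of 1584 and 1682 CPM in slow muscle, 51.1 and 192 CPM in cyclopamine neural crest, and 231 and 213 CPM in untreated neural crest, and none was at 0 in a whole group. The fast muscle markers summed to 8423 and 2480 CPM in slow muscle, 509 and 215 CPM in cyclopamine neural crest, and 71.1 and 127 CPM in untreated neural crest. The notochord and floor plate markers summed to 781 and 841 CPM in slow muscle and 26.2 and 31.5 CPM in untreated neural crest, and the pronephric markers to 193 and 326 CPM in slow muscle and 21.4 and 22.8 CPM in untreated neural crest. The sclerotome markers summed to 171 and 282 CPM in slow muscle, 133 and 57.8 CPM in cyclopamine neural crest, and 66.1 and 26.4 CPM in untreated neural crest, with 4 of 7 tested higher in that sense, matn4 by edgeR call (adjusted p = 0.0323). Of these 4, pax9 passed the edgeR filter through slow muscle alone, so its position was set by that filter. twist2, also among the 4, had reads elsewhere only in cyclopamine replicate 4 and would not have passed without slow muscle. The leukocyte markers lay the other way, at 3.43 and 3.89 CPM in slow muscle, 19.0 and 0.19 CPM in cyclopamine neural crest, and 37.1 and 236 CPM in untreated neural crest. All 5 leukocyte markers tested were lower in both slow muscle libraries, and also in both cyclopamine libraries, than in both untreated libraries. Over all genes tested these shares were 27.3% and 16.6%. Of the 5 markers, spi1b passed the edgeR filter through untreated neural crest alone, so its position was set by that filter. mfap4 and ptprc had reads elsewhere only in cyclopamine replicate 3. They too would not have passed without untreated neural crest, which favoured their lower position. edgeR called 0 of these 5 markers. DESeq2 called 4 of them lower in slow muscle and 0 in cyclopamine neural crest, beside 5.54% and 0.93% of all its genes. The listed marker mpx did not pass the edgeR filter, with 481 counts in untreated replicate 2 and 0 in every other library. DESeq2 called mpx lower in slow muscle (adjusted p = 1.47e-06) and in cyclopamine neural crest (adjusted p = 2.81e-05). The part of these tissues in the slow muscle values, and of leukocytes in the cyclopamine values, was not tested.

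**Figure D1:**
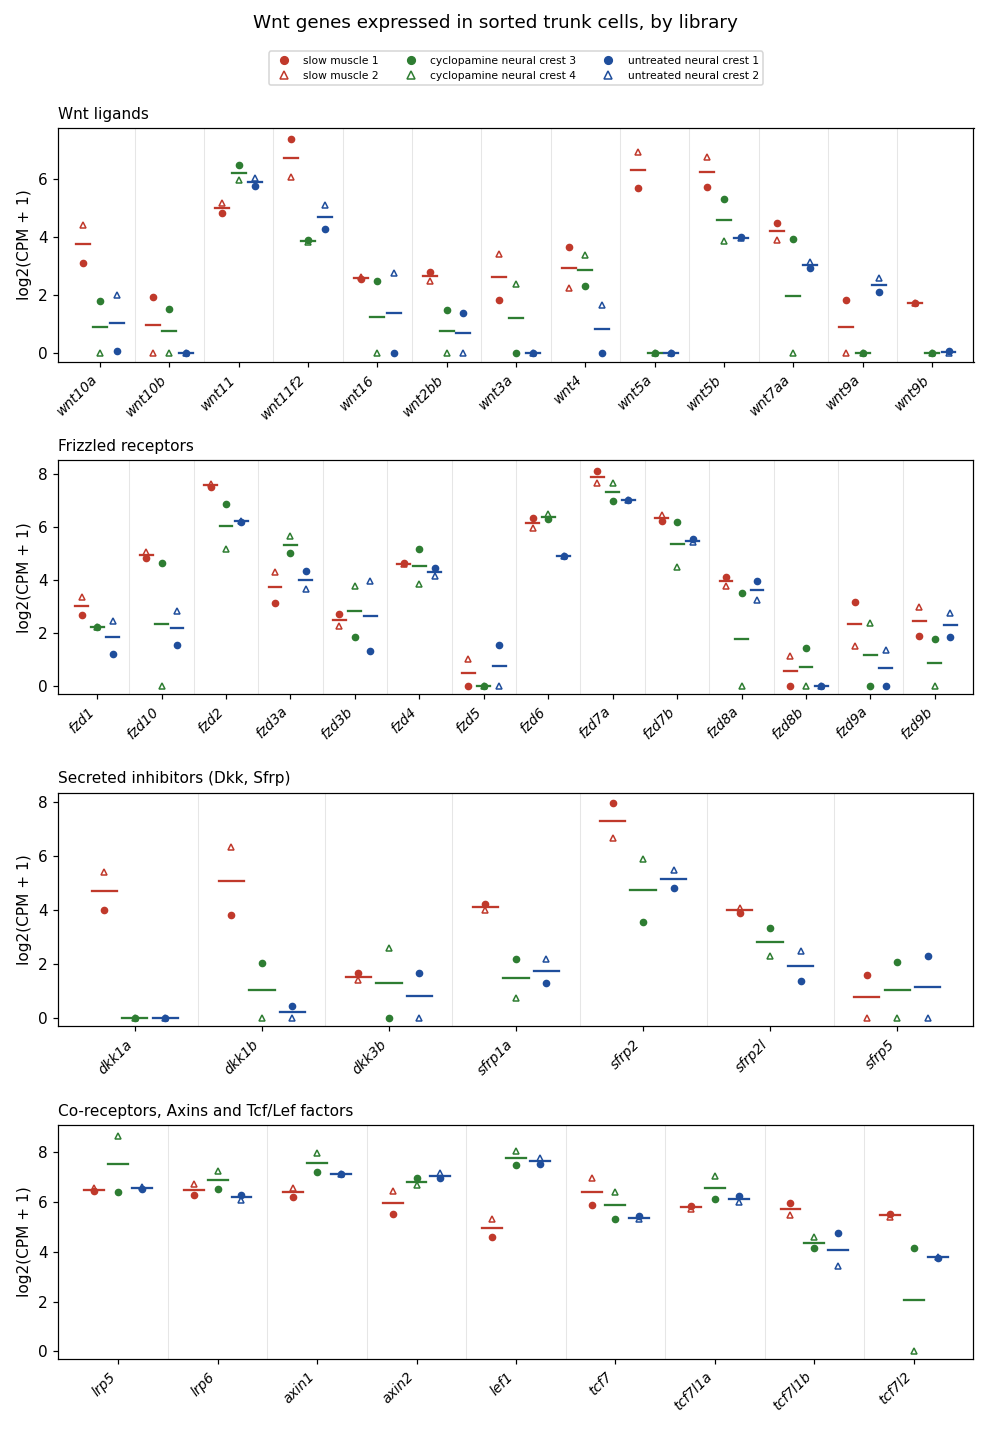
Level of each of the 43 expressed Wnt genes in each library, as log2(CPM + 1), in panels by protein family; filled circles are replicates 1 or 3, open triangles replicates 2 or 4, and short lines the mean of the 2 points of a group. wnt5a and dkk1a have reads in both slow muscle libraries and in no neural crest library, and lef1 lies lower in both slow muscle libraries (23.2 and 39.3 CPM) than in all neural crest libraries.

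The comparison of slow muscle with untreated neural crest asked which Wnt genes each sorted population expressed. The ligand gene wnt5a was higher in slow muscle and had 0 counts in every neural crest library, while lef1, a nuclear partner of beta-catenin, was lower, with a log2 fold change of -2.67 ± 0.41 (SE). These were the calls of edgeR's quasi-likelihood test at an adjusted p of 0.05, 1 of 43 members higher and 1 of 43 lower, beside 1.67% of all 17701 tested genes called higher and 0.876% called lower. DESeq2, run as an alternative, gave 39 members an adjusted p and called 8 higher and 1 lower, beside 11.5% higher and 5.54% lower of all its genes. By position alone, 25 of 43 members (58.1%) were higher in both slow muscle libraries than in both untreated libraries and 6 (14.0%) lower, beside 33.6% and 27.3% of all genes tested. The median fitted log2 difference was 1.30 over the members and 0.08 over all genes. wnt5a, dkk1a and wnt9b met the rule for an expressed gene through slow muscle alone, so their higher position was set by that rule. Outside slow muscle, dkk1b reached 10 counts only in cyclopamine replicate 3 and wnt3a only in cyclopamine replicate 4. They would not have met the rule without slow muscle, which favoured their higher position. All these genes are among the 25 members and in the median of 1.30. No member met the rule through untreated neural crest alone. wnt9a, among the 6 lower, reached 10 counts elsewhere only in slow muscle replicate 1. It would not have met the rule without untreated neural crest, which favoured its lower position. Of the 8 genes that DESeq2 called higher, wnt5a, dkk1a, dkk1b and wnt3a would not have met the rule without slow muscle. wnt5a was also the gene that edgeR called higher, so both call counts rest in part on that rule. Genes that pass in such a way were not counted among all genes tested. Setting the 5 members at 0 in a whole group to 3 counts per library there could not move the member median, since all 5 stayed above it. In bulk samples, fewer cells of a type and less RNA per cell cannot be told apart.

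Of the 26 ligand genes 13 were expressed, and 9 of these were higher and 2 lower in both slow muscle libraries than in both untreated libraries. Over all genes tested these shares were 33.6% and 27.3%. Among the 9, wnt5a and wnt9b met the rule for an expressed gene through slow muscle alone, so their position was set by that rule. wnt3a, also among the 9, would not have met the rule without slow muscle. Of the 2 lower, wnt9a would not have met it without untreated neural crest. wnt5a (ENSDARG00000104973), a ligand best known for acting without beta-catenin, stood at 50.05 and 122 CPM in slow muscle and at 0 counts in both cyclopamine and both untreated libraries. It was higher in slow muscle than in untreated neural crest (edgeR adjusted p = 0.0337, DESeq2 adjusted p = 0.03898) and than in cyclopamine neural crest (edgeR adjusted p = 0.0391). Against cyclopamine neural crest, where cell type and treatment both differ, edgeR called 1 of 43 members higher and 1 of 43 lower, beside 1.38% and 0.797% of all genes. No fold is given against groups at 0. The first call was lost in edgeR without the second slow muscle library (adjusted p = 0.0774) and without either untreated library (0.0525 without replicate 1 and 0.0538 without replicate 2). The call against cyclopamine neural crest was lost without the second slow muscle library (0.0795) and in a fit of only the 4 libraries compared (0.0983).

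wnt5b, the pipetail gene of convergence and extension movements, was present in every library. It stood at 51.3 and 108 CPM in slow muscle, 38.9 and 13.6 CPM in cyclopamine neural crest, and 14.9 and 14.5 CPM in untreated neural crest. Both slow muscle libraries exceeded all neural crest libraries. The log2 fold change of slow muscle over untreated neural crest was 2.44 ± 0.67, which DESeq2 called (adjusted p = 0.00582) and edgeR did not (adjusted p = 0.1298).

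The Wnt11-type genes lay in opposite order. wnt11f2, the silberblick gene of gastrulation movements, stood at 166 and 66.1 CPM in slow muscle, 13.8 and 13.2 CPM in cyclopamine neural crest, and 18.5 and 32.9 CPM in untreated neural crest. The slow muscle libraries were the highest, by 2.18 ± 0.57 on the log2 scale over untreated neural crest (edgeR adjusted p = 0.121, DESeq2 adjusted p = 0.00747). wnt11, also named wnt11r, a muscle and neural tube ligand in the fish, stood at 27.2 and 34.7 CPM in slow muscle, 87.6 and 61.4 CPM in cyclopamine neural crest, and 52.98 and 65.1 CPM in untreated neural crest. Both slow muscle libraries lay below all neural crest libraries, with a log2 difference from untreated neural crest of -0.93 ± 0.37 that neither tool called (edgeR adjusted p = 0.255, DESeq2 adjusted p = 0.223).

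Within each library the ratio of wnt11 to wnt11f2 was 0.163 and 0.525 in slow muscle, 6.36 and 4.67 in cyclopamine neural crest, and 2.86 and 1.98 in untreated neural crest. Transcript lengths were not used, so such a ratio carries an unknown length factor and can be compared between libraries only. The gene pairs were chosen after their values were seen, and their ratios have no test.

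The other 9 expressed ligands were low. wnt3a, a beta-catenin ligand of the dorsal neural tube and tailbud, stood at 2.58 and 9.59 CPM in slow muscle, 0 and 4.23 CPM in cyclopamine neural crest, and 0 in both untreated libraries. DESeq2 called it higher in slow muscle than in untreated neural crest (adjusted p = 0.0428) and edgeR did not (adjusted p = 0.288). Of the 9 tailbud and presomitic markers tested, 7 were higher in both slow muscle libraries than in both untreated libraries, beside 33.6% of all genes tested. Among the 7, her7 would not have passed the edgeR filter without slow muscle. The list summed to 284 and 254 CPM in slow muscle, 134 and 223 CPM in cyclopamine neural crest, and 70.1 and 40.6 CPM in untreated neural crest, and mespba was at 0 in every library. The part of such cells was not tested.

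wnt7aa stood at 21.2 and 14.03 CPM in slow muscle, 14.4 and 0 CPM in cyclopamine neural crest, and 6.69 and 7.87 CPM in untreated neural crest. wnt10a, a ligand of ectodermal appendages, stood at 7.54 and 20.4 CPM in slow muscle, 2.49 and 0 CPM in cyclopamine neural crest, and 0.0527 and 3.02 CPM in untreated neural crest. For both genes the slow muscle libraries exceeded both untreated libraries without a call by either tool. wnt4, wnt2bb, wnt16, wnt9a, wnt9b and wnt10b reached at most 11.6 CPM, the level of wnt4 in slow muscle replicate 1. wnt1, the classical dorsal neural tube ligand, had 0 counts in all 6 libraries, as did wnt2, wnt2ba, wnt4b, wnt6a, wnt6b, wnt7ab, wnt7ba, wnt8b and both gene IDs named wnt8a, 11 gene IDs in all. wnt3 and wnt7bb had reads in a single library each. The dorsal neural tube markers, which include wnt1 and wnt3a, summed to 197 and 132 CPM in slow muscle, 568 and 603 CPM in cyclopamine neural crest, and 658 and 592 CPM in untreated neural crest. pax3a and pax7a, which are also neural crest genes, carried the lower sum in slow muscle. Of the 11 such markers tested 4 were higher in both slow muscle libraries than in both untreated libraries and 3 lower, with a median log2 difference of 0.44. Over all genes tested 33.6% were higher and 27.3% lower, so these counts are no result about the list.

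All 14 Frizzled genes were expressed, and 8 were higher in both slow muscle libraries than in both untreated libraries, with none lower. Of all genes tested, 33.6% were higher and 27.3% lower by this measure. edgeR called 0 of the 14, and DESeq2 called fzd6. fzd6, a receptor of planar polarity and hair patterning in the mouse, stood at 79.8 and 61.4 CPM in slow muscle, 76.4 and 88.2 CPM in cyclopamine neural crest, and 28.8 and 28.6 CPM in untreated neural crest. Untreated neural crest was the low group, and slow muscle exceeded it by 1.30 ± 0.33 on the log2 scale (edgeR adjusted p = 0.114, DESeq2 adjusted p = 0.0129). fzd7a, a receptor used in both branches and the Frizzled gene with the most reads, stood at 272 and 201 CPM in slow muscle, 123 and 197 CPM in cyclopamine neural crest, and 128 and 128 CPM in untreated neural crest. Its difference from untreated neural crest was 0.89 ± 0.35 on the log2 scale (edgeR adjusted p = 0.252, DESeq2 adjusted p = 0.131).

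Its copy fzd7b stood at 73.99 and 84.9 CPM in slow muscle, 72.1 and 21.4 CPM in cyclopamine neural crest, and 45.2 and 42.00 CPM in untreated neural crest. fzd2, a receptor of Wnt5 ligands, stood at 181 and 195 CPM in slow muscle, 116 and 35.1 CPM in cyclopamine neural crest, and 71.6 and 73.1 CPM in untreated neural crest. Both genes were highest in slow muscle, by 0.87 ± 0.59 for fzd7b and 1.38 ± 0.57 for fzd2 over untreated neural crest. Neither tool called them in the fit of all libraries (edgeR adjusted p = 0.461 and 0.265). In a fit of only the 4 libraries compared edgeR called fzd2 higher (adjusted p = 0.02). fzd10 stood at 27.5 and 32.3 CPM in slow muscle, 24.1 and 0 CPM in cyclopamine neural crest, and 1.95 and 6.15 CPM in untreated neural crest. Neither tool called it in the fit of all libraries (edgeR adjusted p = 0.526), and edgeR did with the replicate number as a block (adjusted p = 0.0462). fzd1, fzd4 and fzd9a were also higher in both slow muscle libraries than in both untreated libraries, with at most 23.7 CPM there. fzd3a, fzd3b, fzd5, fzd8a, fzd8b and fzd9b overlapped between slow muscle and untreated neural crest.

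The co-receptor genes overlapped between the sorts. lrp5 stood at 85.7 and 93.4 CPM in slow muscle and 90.1 and 95.4 CPM in untreated neural crest, a log2 fold change of -0.05 ± 0.68 that was 0.033 under RLE scaling and in DESeq2. lrp6 stood at 75.8 and 104 CPM in slow muscle and 77.6 and 67.6 CPM in untreated neural crest. Neither tool called them (edgeR adjusted p = 0.991 for lrp5 and 0.738 for lrp6).

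**Figure D2:**
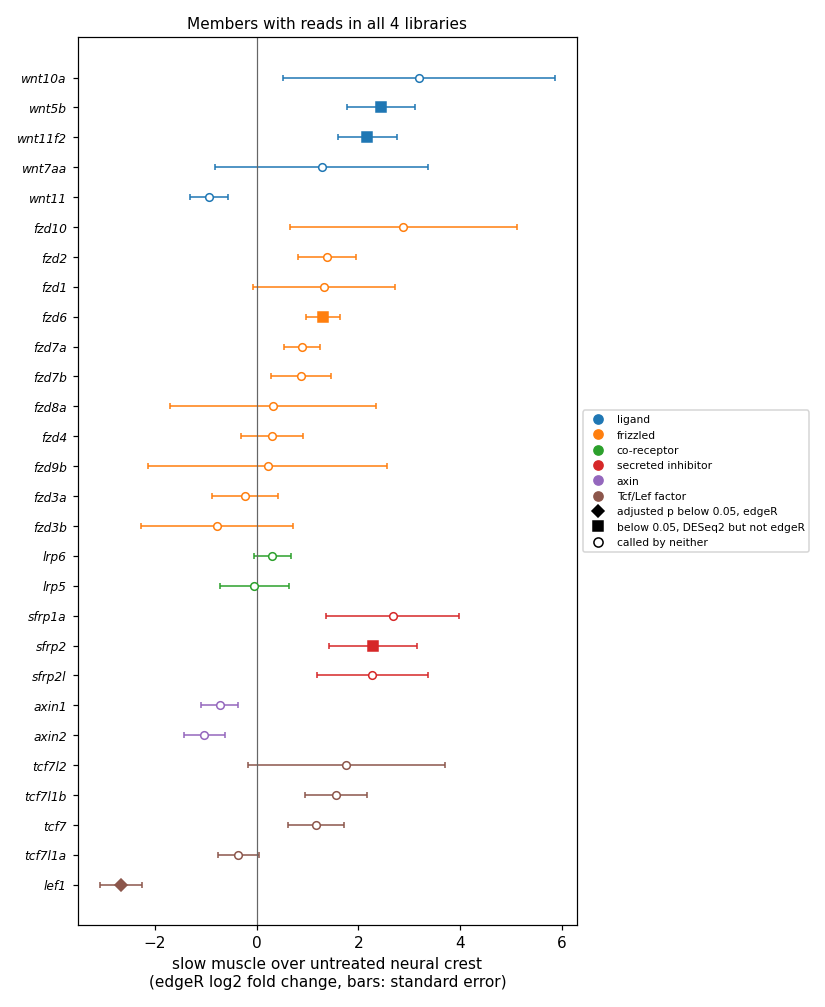
edgeR log2 fold change of slow muscle over untreated neural crest, with its standard error, for the 28 expressed Wnt genes with reads in all 4 libraries compared, coloured by protein family. The diamond is lef1 (-2.67), called by edgeR, and the squares are wnt5b, wnt11f2, fzd6 and sfrp2, which DESeq2 alone called.

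Of 10 genes for secreted inhibitors 7 were expressed, and 5 of these were higher in both slow muscle libraries than in both untreated libraries, with none lower. Among all genes tested, 33.6% were higher and 27.3% lower in this way. Of the 5, dkk1a met the rule for an expressed gene through slow muscle alone, so its position was set by that rule. dkk1b, also among the 5, would not have met the rule without slow muscle. edgeR called 0 of the 7, and DESeq2 called dkk1a, dkk1b and sfrp2 higher. dkk1a (ENSDARG00000014103) stood at 15.03 and 40.98 CPM in slow muscle and at 0 counts in all 4 neural crest libraries (edgeR adjusted p = 0.0763, DESeq2 adjusted p = 2.05e-06 against untreated neural crest). Its copy dkk1b stood at 12.97 and 78.4 CPM in slow muscle, 3.17 and 0 CPM in cyclopamine neural crest, and 0.369 and 0 CPM in untreated neural crest (edgeR adjusted p = 0.207, DESeq2 adjusted p = 0.00295). Both slow muscle libraries exceeded every neural crest library for both copies, and slow muscle replicate 2 was the higher one each time.

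sfrp2, which encodes a Wnt-binding protein, stood at 243 and 99.6 CPM in slow muscle, 10.9 and 57.9 CPM in cyclopamine neural crest, and 27.4 and 42.9 CPM in untreated neural crest. Slow muscle exceeded untreated neural crest by 2.29 ± 0.87 on the log2 scale (edgeR adjusted p = 0.234, DESeq2 adjusted p = 0.0475). The related sfrp2l stood at 13.98 and 15.97 CPM in slow muscle, 8.97 and 3.99 CPM in cyclopamine neural crest, and 1.63 and 4.55 CPM in untreated neural crest. sfrp1a stood at 17.5 and 15.00 CPM in slow muscle, 3.53 and 0.705 CPM in cyclopamine neural crest, and 1.48 and 3.61 CPM in untreated neural crest. For sfrp2, sfrp2l and sfrp1a both slow muscle libraries lay above all neural crest libraries. The difference from untreated neural crest was 2.27 ± 1.09 for sfrp2l and 2.67 ± 1.31 for sfrp1a, with no call by either tool (edgeR adjusted p = 0.312 and 0.318). dkk3b and sfrp5 overlapped between the groups, and dkk2, dkk3a and sfrp1b fell short of the limit for an expressed gene.

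Among the intracellular members, both axin genes lay lower in slow muscle. axin2, a scaffold of the destruction complex and a widely used beta-catenin target, stood at 44.2 and 85.7 CPM in slow muscle, 123 and 101 CPM in cyclopamine neural crest, and 124 and 141 CPM in untreated neural crest. axin1, its more evenly expressed relative, stood at 72.6 and 93.9 CPM in slow muscle, 145 and 249 CPM in cyclopamine neural crest, and 139.6 and 137 CPM in untreated neural crest. The slow muscle libraries were the lowest for both genes. The log2 difference from untreated neural crest was -1.03 ± 0.40 for axin2 and -0.73 ± 0.36 for axin1, and neither tool called it (edgeR adjusted p = 0.245 and 0.324).

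lef1 (ENSDARG00000031894) stood at 23.2 and 39.3 CPM in slow muscle, 179 and 266 CPM in cyclopamine neural crest, and 184 and 214 CPM in untreated neural crest. Both slow muscle libraries lay below all neural crest libraries. The log2 fold change of slow muscle was -2.67 ± 0.41 against untreated neural crest (edgeR adjusted p = 0.0376, DESeq2 adjusted p = 3.12e-06) and -2.83 ± 0.41 against cyclopamine neural crest (edgeR adjusted p = 0.0395). The first call was lost in edgeR without any 1 of the 4 libraries compared (adjusted p = 0.102 without slow muscle replicate 1, 0.0508 without slow muscle replicate 2, 0.117 without untreated replicate 1 and 0.15 without untreated replicate 2), each of which leaves a group with a single library. The call against cyclopamine neural crest was lost without slow muscle replicate 1 (adjusted p = 0.0992), without untreated replicate 1 (0.0551) or replicate 2 (0.0546), and in a fit of only the 4 libraries compared (0.126). The log2 fold change against untreated neural crest stayed between -3.12 and -2.38 over the 14 alternatives run.

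The Tcf genes encode DNA-binding partners of beta-catenin related to Lef1. tcf7 stood at 57.5 and 124 CPM in slow muscle, 38.9 and 83.9 CPM in cyclopamine neural crest, and 42.6 and 38.4 CPM in untreated neural crest. tcf7l1b, which encodes a repressor of Wnt targets, stood at 62.1 and 43.01 CPM in slow muscle, 16.6 and 23.1 CPM in cyclopamine neural crest, and 25.8 and 9.82 CPM in untreated neural crest. tcf7l2 stood at 44.8 and 41.5 CPM in slow muscle, 16.8 and 0 CPM in cyclopamine neural crest, and 12.4 and 12.96 CPM in untreated neural crest. For these 3 genes both slow muscle libraries exceeded both untreated libraries, by 1.17 ± 0.55 for tcf7 and 1.56 ± 0.61 for tcf7l1b on the log2 scale. Neither tool called them in the fit of all libraries (edgeR adjusted p = 0.305 for tcf7, 0.244 for tcf7l1b and 0.703 for tcf7l2). In a fit of only the 4 libraries compared edgeR called tcf7l2 higher (adjusted p = 0.0352). The fit of all libraries also takes in the spread within cyclopamine neural crest, where tcf7l2 stood at 16.8 and 0 CPM. tcf7l1a, the other copy of the repressor gene, lay lower in slow muscle at 56.7 and 51.4 CPM, against 75.4 and 63.8 CPM in untreated neural crest (log2 difference -0.37 ± 0.41 by fit, edgeR adjusted p = 0.708).

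The ratio of lef1 to tcf7 within a library was 0.404 and 0.316 in slow muscle, 4.59 and 3.17 in cyclopamine neural crest, and 4.31 and 5.58 in untreated neural crest. Every slow muscle library had a lower ratio than every neural crest library.

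**Figure D3:**
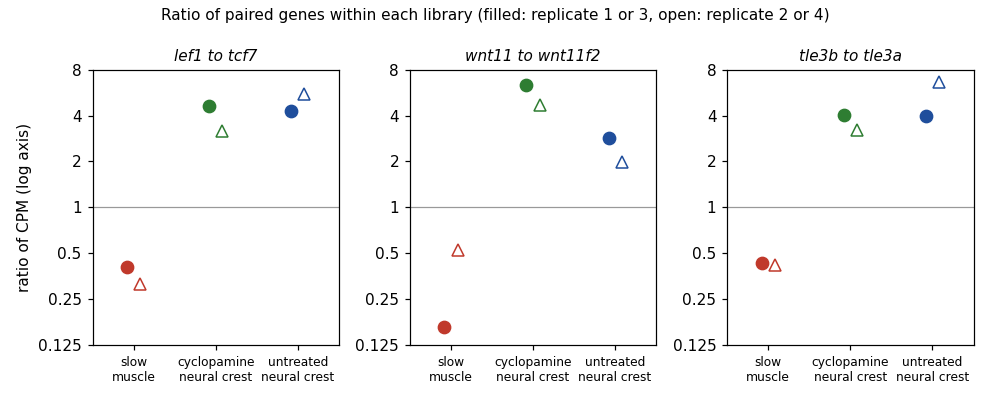
Ratio of CPM of 2 related genes within each library on a log axis, by group, for lef1 over tcf7, wnt11 over wnt11f2 and tle3b over tle3a; each point is 1 library. The slow muscle ratios lie between 0.163 and 0.525, and all neural crest ratios between 1.98 and 6.68.

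The comparison of cyclopamine with untreated neural crest asked how the Wnt genes of neural crest stand when Hedgehog signalling is blocked. The treated libraries are replicates 3 and 4 and the untreated ones replicates 1 and 2. Treatment and any difference between preparations therefore cannot be told apart. fzd6 stood at 76.4 and 88.2 CPM in cyclopamine neural crest and 28.8 and 28.6 CPM in untreated neural crest, a log2 fold change of 1.52 ± 0.34. DESeq2 called it higher (adjusted p = 0.0233), 1 of 39 members (2.56%), beside 0.961% of all its genes called higher and 0.93% called lower, and edgeR did not (adjusted p = 0.7900). edgeR called 0 of 43 members, beside 0.0% of all genes tested. At an unadjusted p under 0.05 it had 1 of 43 members, beside 4.33% of all genes. The median fitted log2 difference was 0.16 over the members and 0.0 over all genes. Setting the 8 members at 0 in a whole group to 3 counts per library could not move the member median, since each kept its side of it. By position, 5 of 43 members (11.6%) were higher in both cyclopamine libraries than in both untreated libraries and 4 (9.3%) lower, beside 14.6% and 16.6% of all genes tested.

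The 5 higher ones were fzd6, fzd3a, lrp6, axin1 and wnt4. fzd3a, a receptor of axon guidance and planar polarity, stood at 31.02 and 48.9 CPM in cyclopamine neural crest and 19.3 and 11.7 CPM in untreated neural crest (log2 difference 1.36 ± 0.66 by fit, edgeR adjusted p = 0.835). lrp6 stood at 91.9 and 149 CPM in cyclopamine neural crest and 77.6 and 67.6 CPM in untreated neural crest (log2 difference 0.73 ± 0.37 by fit, edgeR adjusted p = 0.835). The 4 lower ones were wnt11f2, axin2, fzd9b and wnt9a. wnt9a would not have met the rule for an expressed gene without untreated neural crest, which favoured its lower position. wnt11f2 had a fitted log2 difference of -0.93 ± 0.56 (edgeR adjusted p = 0.835), and fzd9b and wnt9a were low, with at most 5.74 CPM in any neural crest library. Of these 9 genes DESeq2 called fzd6 alone.

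lef1 overlapped between the treatments, with a fitted log2 difference of 0.16 ± 0.38 (edgeR adjusted p = 1) that was -0.154 without cyclopamine replicate 4. lrp5 stood at 84.5 and 404 CPM in cyclopamine neural crest and 90.1 and 95.4 CPM in untreated neural crest, so its fitted log2 difference of 1.40 ± 0.69 (edgeR adjusted p = 0.835) was -0.135 without cyclopamine replicate 4 and 2.131 without cyclopamine replicate 3 (edgeR adjusted p = 0.0125). Without cyclopamine replicate 3, which leaves replicate 4 as the treated group, the log2 fold change of fzd6 was 1.63. That fit put tcf7l2, fzd8a, fzd10 and wnt7aa lower. These 4 genes had 0 counts in cyclopamine replicate 4 and between 10.5 and 24.1 CPM in cyclopamine replicate 3. The share of all genes called in fits with 1 treated library is not given, so their calls are no result about Wnt genes. Cyclopamine replicate 4 also held more notochord and floor plate transcripts, with 9 markers summing to 39.9 CPM in cyclopamine replicate 3, 684 CPM in cyclopamine replicate 4, and 26.2 and 31.5 CPM in untreated neural crest. Of the 7 of these markers tested, 3 were higher in both cyclopamine libraries than in both untreated libraries and none lower, beside 14.6% and 16.6% of all genes. col9a1a was at 0 in cyclopamine neural crest and shhb in untreated neural crest. DESeq2 called col8a1a higher (adjusted p = 0.00286). Of the other lists' tested markers it called fgf8a (tailbud), cdh17 (pronephros), ryr1b (fast muscle) and krt91 (epidermis) higher and smyhc1 (slow muscle) lower. By position 5 of 9 endothelial markers were lower with cyclopamine and 0 higher. The part of these tissues was not tested.

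**Figure D4:**
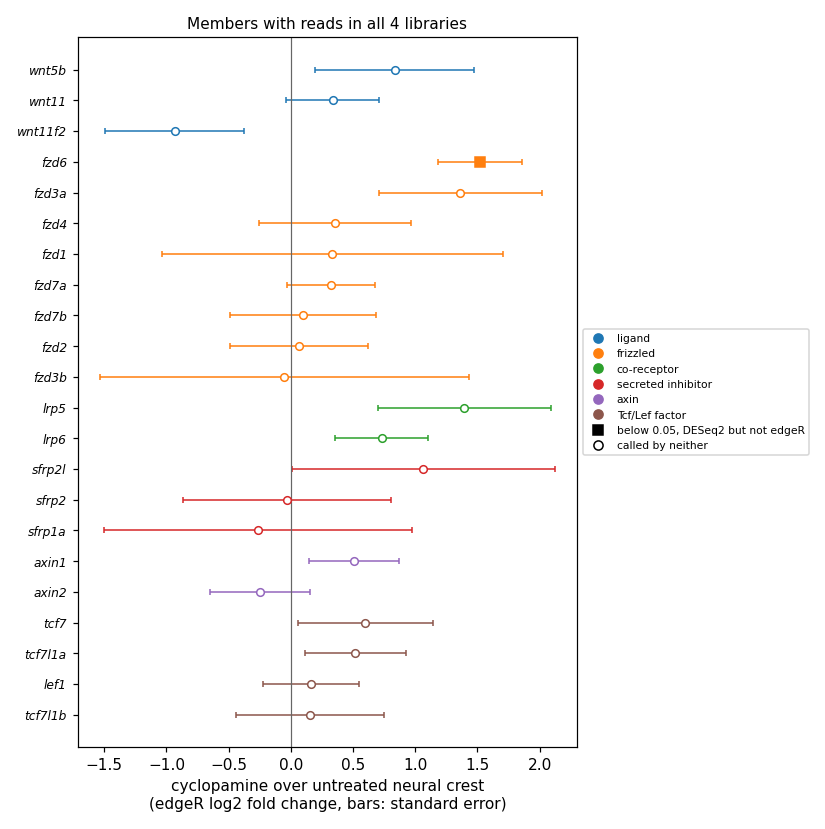
edgeR log2 fold change of cyclopamine over untreated neural crest, with its standard error, for the 22 expressed Wnt genes with reads in all 4 libraries compared, coloured by protein family. The square is fzd6 (1.52), called by DESeq2 alone, and edgeR called 0 of 43 members.

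The rest of the pathway was read from lists of 55 core and secreted genes and 21 targets, of which 54 genes outside the Wnt set were tested. In slow muscle against untreated neural crest edgeR called 0 of 54 higher and 1 of 54 (1.85%) lower, beside 1.67% and 0.876% of all genes. DESeq2 called 7 of 53 (13.2%) higher and 4 of 53 (7.55%) lower, beside 11.5% and 5.54% of all its genes. Both shares were near those of all genes, so the counts are no result about the pathway, and the called genes are described one by one. The gene lower in edgeR was mitfa, the melanophore master gene and a Wnt target of pigment precursors, at 0 counts in both slow muscle libraries, 393 and 45.9 CPM in cyclopamine neural crest and 283 and 268 CPM in untreated neural crest (edgeR adjusted p = 0.0365). It is also one of the neural crest markers. The median log2 difference was 0.03 over the 42 core genes tested and 0.87 over the 14 targets tested, beside 0.08 over all genes.

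The 7 genes that DESeq2 called higher were kremen1, rspo2, notum1b, notum2, nkd1, tle3a and tbx6. kremen1, the membrane partner of Dkk1 at Lrp6, stood at 51.4 and 61.3 CPM in slow muscle, 3.76 and 20.01 CPM in cyclopamine neural crest, and 1.79 and 3.19 CPM in untreated neural crest (log2 fold change over untreated neural crest 4.50 ± 0.97, edgeR adjusted p = 0.0764, DESeq2 adjusted p = 6.71e-05). rspo2, a secreted agonist that raises Wnt receptor levels, stood at 74.5 and 126 CPM in slow muscle, 4.39 and 0 CPM in cyclopamine neural crest, and 5.59 and 1.597 CPM in untreated neural crest (edgeR adjusted p = 0.244, DESeq2 adjusted p = 0.01797). Both slow muscle libraries lay above every neural crest library for both genes. notum1b, which encodes a Wnt deacylase, stood at 17.5 and 36.2 CPM in slow muscle, 5.89 and 5.31 CPM in cyclopamine neural crest and 2.27 and 5.97 CPM in untreated neural crest (DESeq2 adjusted p = 0.0202). notum2 stood at 56.8 and 3.04 CPM in slow muscle and at 0 in all neural crest libraries (DESeq2 adjusted p = 7.56e-05), so the slow muscle libraries lay far apart. nkd1, an inhibitor of Dishevelled induced by Wnt, stood at 103 and 111 CPM in slow muscle, 61.8 and 39.9 CPM in cyclopamine neural crest and 31.6 and 26.97 CPM in untreated neural crest (log2 difference 1.87 ± 0.37 by fit, edgeR adjusted p = 0.0645, DESeq2 adjusted p = 1.61e-04). tbx6, a presomitic transcription factor gene, stood at 24.7 and 80.99 CPM in slow muscle, 33.1 and 12.2 CPM in cyclopamine neural crest and 6.38 and 7.81 CPM in untreated neural crest (DESeq2 adjusted p = 0.006104).

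The 4 genes that DESeq2 called lower were mitfa, apc, ror1 and tle3b. apc, a scaffold of the destruction complex, stood at 100.2 and 111 CPM in slow muscle, 337 and 647 CPM in cyclopamine neural crest and 316 and 304 CPM in untreated neural crest (log2 difference -1.55 ± 0.39 by fit, edgeR adjusted p = 0.108, DESeq2 adjusted p = 0.0143). ror1, which encodes a receptor of the Ror family that binds Wnt5a in mammals, stood at 4.69 and 5.79 CPM in slow muscle, 32.4 and 82.3 CPM in cyclopamine neural crest and 23.8 and 18.9 CPM in untreated neural crest (edgeR adjusted p = 0.1505, DESeq2 adjusted p = 0.04998). Its DESeq2 call lay just under the threshold. The Groucho-type co-repressor genes tle3a and tle3b, whose products bind Tcf factors, lay in opposite order. Of the other Groucho-type genes listed, tle2a was lower in both slow muscle libraries than in both untreated libraries (log2 difference -1.03 ± 0.31 by fit). tle2b overlapped between these groups, and neither tool called tle2a or tle2b. tle3b stood at 56.7 and 61.05 CPM in slow muscle, 233 and 202 CPM in cyclopamine neural crest, and 171 and 184 CPM in untreated neural crest (log2 difference -1.59 ± 0.28 by fit, edgeR adjusted p = 0.0505, DESeq2 adjusted p = 4.56e-05). tle3a stood at 131 and 145 CPM in slow muscle, 57.9 and 62.6 CPM in cyclopamine neural crest, and 43.2 and 27.6 CPM in untreated neural crest (log2 difference 1.96 ± 0.36 by fit, edgeR adjusted p = 0.0543, DESeq2 adjusted p = 7.82e-05). The ratio of tle3b to tle3a was 0.432 and 0.421 in slow muscle, 4.02 and 3.23 in cyclopamine neural crest, and 3.95 and 6.68 in untreated neural crest.

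With apc, the core genes with the most reads were ctnnb1 and ctnnb2, which encode beta-catenins, and the kinase gene csnk1a1. ctnnb1 stood at 936 and 1061 CPM in slow muscle, 1455 and 1875 CPM in cyclopamine neural crest, and 1335 and 1099.6 CPM in untreated neural crest. Neither tool called ctnnb1, ctnnb2 or csnk1a1 in slow muscle against untreated neural crest (edgeR adjusted p = 0.7196 for ctnnb1, 0.328 for ctnnb2 and 0.3098 for csnk1a1). The beta-catenin targets sp5l and sp5a overlapped between those groups, with 18.1 and 22.2 CPM for sp5l in slow muscle and 19.2 and 12.8 CPM in untreated neural crest, and 4.06 and 14.4 CPM for sp5a in slow muscle and 15.8 and 11.3 CPM in untreated neural crest.

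Between cyclopamine and untreated neural crest edgeR called 0 of the 54 pathway genes tested, beside 0.0% of all genes. DESeq2 called 0 of 53, beside 0.961% higher and 0.93% lower of all its genes. These call counts are therefore no result about the pathway. By position, 15 of the 42 core genes tested were higher in both cyclopamine libraries than in both untreated libraries and 5 lower. Of the 14 targets tested, 4 were higher and 4 lower, beside 14.6% and 16.6% of all genes tested. No test was run on these positions. The median log2 difference was 0.34 over the 42 core genes and 0.37 over the 14 targets, beside 0.0 over all genes. ccnd1, a cell cycle target and the target with the most reads, stood at 315 and 69.2 CPM in cyclopamine neural crest and 481 and 377 CPM in untreated neural crest (log2 difference -1.16 ± 0.69 by fit, edgeR adjusted p = 0.835). tbxta, the brachyury gene of notochord and tailbud, stood at 23.5 and 10.5 CPM in slow muscle, 6.02 and 173 CPM in cyclopamine neural crest and 6.91 and 6.98 CPM in untreated neural crest, so that its high level in the cyclopamine group came from replicate 4 alone, and neither tool called it in either comparison (edgeR adjusted p = 0.669 for slow muscle and 0.835 for cyclopamine). nkd1, given above, had a fitted log2 difference of 0.80 ± 0.36 (edgeR adjusted p = 0.835), with both cyclopamine libraries above both untreated ones.

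**Figure D5:**
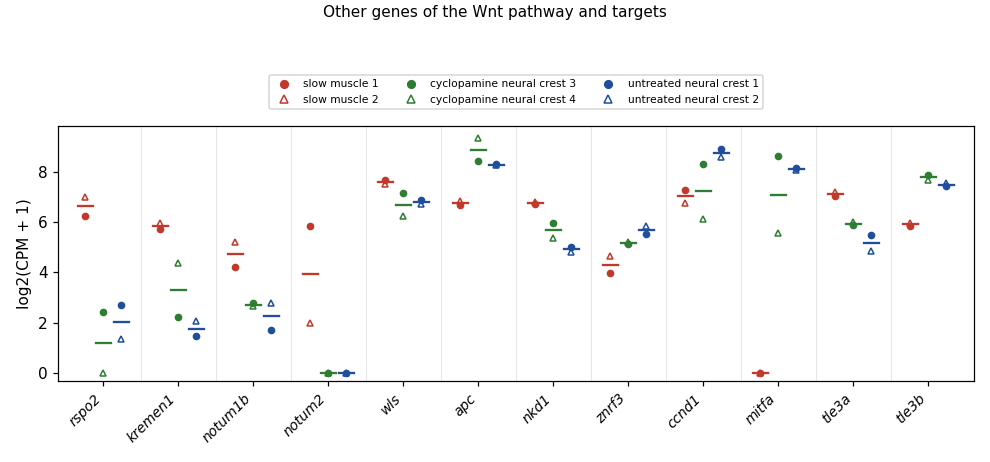
Level of 12 other genes of the Wnt pathway or its targets in each library, as log2(CPM + 1), with symbols by replicate and short lines for the group mean. rspo2, kremen1 and notum1b are higher in both slow muscle libraries than in all neural crest libraries, mitfa is at 0 in slow muscle, and tle3a and tle3b lie in opposite order.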

How the data were processed

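PolyA RNA of sorted cells in 6 libraries was sequenced as paired reads from a stranded kit, per the labels' protocols. The authors deposited a table of raw counts per gene, which was used here, and a second table of log2 values, which was not used. STAR, Subread, featureCounts and DESeq2 are named in the submitters' processing notes without a role or version. The sources used here do not give the genome build, annotation, strand setting or treatment of reads shared by gene copies, and values of near-identical copies are uncertain.

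From the deposited counts, genes were kept by filterByExpr (10 counts, 17701 of 32520 genes), scaled by TMM and tested in edgeR 4.0.16 under R 4.3.3 by the quasi-likelihood test. All 6 libraries in 3 groups entered 1 fit, with a common dispersion of 1.132 and no covariate, two-sided, with Benjamini-Hochberg adjustment over all genes tested and a threshold of 0.05. All 43 expressed members, and no other member, passed the filter. A standard error (SE) is the log2 fold change over the square root of the F statistic. DESeq2 1.42.0 was an alternative, as were other filters and scalings, fits of the 4 libraries compared, each library left out in turn, and a replicate block. Total counts of 15355583 to 26441238 per library set the precision. The level that a count of 0 allows covers counting error only, while SEs and p-values rest on the spread between libraries. In the fit of all libraries this spread includes that of the group outside a comparison.

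The members and the gene lists were chosen with earlier results of these data known. Values per library are given for members called by edgeR or DESeq2 and for the members with the most reads of each family, with others given for comparison after their values were seen. Abundance per length could not be used, since transcript lengths were not available for the annotation counted, and no sequences are shown. Pathway genes outside the set are named where called, where they are among the 4 with the most reads of their list, or as the targets sp5a, sp5l and nkd1.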

Additional observations from a re-analysis of the deposited data

How the results depend on the processing

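Counts of called genes were sensitive to the settings, while directions mostly held: of the comparisons of a named gene with an alternative, 397 kept direction and call, 67 gained a call, 7 lost it and 10 changed sign. For slow muscle against untreated neural crest, where edgeR called 2 Wnt genes and 1 other pathway gene, the counts were 5 and 7 with no filter, 9 and 11 with DESeq2, and 8 and 9 with only the 4 libraries compared. Those 8 Wnt genes were wnt5a, wnt5b, dkk1a, dkk1b, fzd2, fzd6 and tcf7l2, which were higher, and lef1, which was lower. Shares of all genes called are given for the main fit and, against untreated neural crest, for DESeq2. Counts in this section without such a share describe the settings and are no result about Wnt genes. Other pathway genes called were 2 under the filter of 50 counts and also 2 under upper quartile scaling. With the replicate number as a block, 7 Wnt genes and 11 other pathway genes were called. Same-numbered libraries did not deviate together (r = 0.0148 over 17701 genes), which cannot show whether they came from the same embryos. All embryos carried both reporters, but the labels state no pairing, so the main fit does not treat the numbers as pairs. With 1 library left out, the counts lay between 0 and 11 for Wnt genes, with 11 without cyclopamine replicate 3 and also without cyclopamine replicate 4, and between 1 and 12 for other pathway genes. For cyclopamine against untreated neural crest, DESeq2 called 1 Wnt gene against 0 in edgeR, and leaving out 1 library gave between 0 and 6 for Wnt genes and between 0 and 6 for other pathway genes, the 6 each time without cyclopamine replicate 3. For slow muscle against cyclopamine neural crest, where edgeR called 2 Wnt genes (beside 1.38% of all genes higher and 0.797% lower), the counts were 4 with no filter, 4 with DESeq2, 0 with only the 4 libraries compared, and between 1 and 15 with 1 library left out, 15 without cyclopamine replicate 3 and 5 without cyclopamine replicate 4. Signs changed for lrp5 in slow muscle over untreated neural crest (log2 fold change 0.033 under RLE and in DESeq2) and for sfrp2 in cyclopamine over untreated neural crest (0.039 under RLE and in DESeq2, 0.015 under upper quartile scaling). With 1 library left out, the cyclopamine log2 fold changes lay between -1.694 and 0.729 for sfrp2, between -0.063 and 0.636 for fzd7a, between -0.154 and 0.426 for lef1, and between -0.135 and 2.131 for lrp5. Upper quartile scaling moved the median of all genes by -0.2465 in slow muscle against untreated neural crest and by -0.2459 against cyclopamine neural crest, and other scalings moved it by under 0.1. The cause of these changes was not tested. With 2 libraries a group and 1 left out, the lone library is assumed to vary like the others.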
